A study of Mus musculus with 35 samples.

Results

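Extra NELFB was followed beside an intact floxed allele in 10 of the 35 libraries of this series, those of cell populations infected with Ad-GFP, an adenovirus that expresses GFP and leaves the floxed Nelfb allele in place. The libraries were taken by their labels: EV-GFP, WT-GFP, MT194-GFP, MT486-GFP and DMT-GFP, 2 each, so that 8 libraries held a NELFB construct and 2 the empty vector. All 5 groups were immortalized Nelfb flox/- mouse embryonic fibroblasts (MEFs), which carry 1 floxed and 1 null allele of Nelfb, and RNA was collected 7 days after infection. EV carried the empty pLenti vector, WT flag-tagged mouse NELFB, MT194 an alanine mutant that no longer binds NELFA and NELFC, MT486 an alanine mutant that no longer binds NELFE, and DMT a construct whose label names both mutations. The constructs were driven by the CMV promoter of a lentiviral vector, and each was a single drug-selected population of the same parent cells. An effect of a construct and a trait of its population therefore cannot be told apart, and the same holds for EV, the only reference population. The 10 Ad-Cre libraries of the same populations, in which the floxed allele had been targeted for deletion, served only for comparison.

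NELF, the negative elongation factor, is a complex of NELFA, NELFB, NELFC or its shorter form NELFD, and NELFE. Together with DSIF it holds RNA polymerase II shortly after the start of a gene until the kinase P-TEFb releases it. NELFB sits between the subunits, with the NELFA and NELFC lobe on one side and NELFE on the other.

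The mutated stretches of Nelfb are shown because they are all that distinguishes the mutant constructs from WT. The upper line of each pair is the reference transcript and the lower line the mutagenesis primer of the study, 5′ to 3′ in the sense of the gene, with the 3 substituted codons in capitals.
Nelfb at MT194: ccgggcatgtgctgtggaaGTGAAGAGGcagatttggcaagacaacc
MT194: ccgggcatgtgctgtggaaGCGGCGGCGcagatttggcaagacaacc
Nelfb at MT486: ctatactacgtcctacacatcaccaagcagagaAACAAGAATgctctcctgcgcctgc
MT486: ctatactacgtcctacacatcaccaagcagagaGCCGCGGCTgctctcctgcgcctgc
The MT194 stretch lies at chr2:25209991-25210037 on the minus strand of GRCm38 (mm10), in exon 4 of the annotated coding transcript, and 5 bases were changed. The MT486 stretch lies at chr2:25203153-25203210 on the same strand, in exon 10, and 6 bases were changed. In the reading frame annotated by GENCODE these are codons 196 to 198 and 488 to 490, each 2 above the number in the construct's name.

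Reads counted on genes ranged from 17969149 to 29080007 per library, with a median of 19651148. The 12 fibroblast markers summed to between 15242 and 21090 CPM (counts scaled to the reads on genes of each library), with Col1a1 the most abundant. Not all were high: Thy1 was at 0 to 0.111 CPM and Lum at 0.731 to 3.03 CPM. Markers of other cells were low: the 6 macrophage markers summed to 3.94 to 6.33 CPM with Cd68 the most abundant, the 5 endothelial markers to 0.303 to 0.951 CPM with Kdr the most abundant, and the 6 epithelial markers to 0.39 to 1.23 CPM, with Krt5, Krt8 and Krt14 at 0 in all 10 libraries. Of the muscle markers Myod1 and Myog were at 0, and the list summed to at most 0.39 CPM. The 4 neural markers summed to 51.7 to 101 CPM, with Nes the most abundant and Sox2 at 0. Replicate 1 and replicate 2 of each group differed in the share of reads that fell on no gene, which was 12.9% to 14.8% in the replicate 1 libraries and 16.7% to 21.3% in the replicate 2 libraries.

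WT-GFP 2 stood apart from WT-GFP 1. The difference of each construct library from the EV library of the same replicate was taken on the log2(CPM + 0.5) scale, and over 13343 genes the differences of the replicates correlated with r = 0.41 for MT194, 0.40 for MT486, 0.22 for DMT and 0.09 for WT. The median absolute difference from EV was 0.0801 in WT-GFP 1 and 0.154 in WT-GFP 2. The 27 genes of the G2/M and mitosis list, which mark dividing cells, had a median of 0.04 in WT-GFP 1 and -0.27 in WT-GFP 2. For DMT the same medians were 0.15 and -0.30, for MT194 0.35 and 0.17, and for MT486 0.08 and 0.07. The counts for WT and DMT are therefore given with and without their replicate 2 library, and the part of cell division in the differences was not tested.

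Nelfb RNA checked the labels. Nelfb, on chr2:25199712-25211489, had 46.3 and 39.8 CPM (after TMM normalization, replicate 1 and replicate 2) in EV-GFP. It had 97.7 and 83.3 CPM in WT-GFP and 93.4 and 79.2 CPM in MT486-GFP. In MT194-GFP it had 74.0 and 62.3 CPM, and in DMT-GFP 73.2 and 62.1 CPM. All 8 construct libraries thus lay above both EV libraries. Averaged over the constructs, Nelfb was 1.80-fold higher than in EV, with a log2 fold change of 0.85 (standard error 0.06) and an adjusted p of 1.50e-07 (edgeR's quasi-likelihood test). The increase was 2.10-fold in WT, 2.00-fold in MT486, 1.58-fold in MT194 and 1.57-fold in DMT, with adjusted p of 6.13e-08, 2.04e-07, 5.52e-05 and 0.000195. Reads of the added cDNA and of the floxed allele count alike, so these are sums of both. Against the mean of the other constructs, the log2 fold change of Nelfb was 0.30 in WT and 0.21 in MT486, and -0.25 in MT194 and -0.26 in DMT, each with a standard error of 0.05 and adjusted p between 0.00834 and 0.0294. Libraries of WT overlapped those of MT486, and libraries of MT194 those of DMT. With 1 construct library left out these 4 values kept their direction, and their adjusted p reached 0.101 in WT, 0.248 in MT194, 0.341 in MT486 and 0.417 in DMT.

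**Figure D1:**
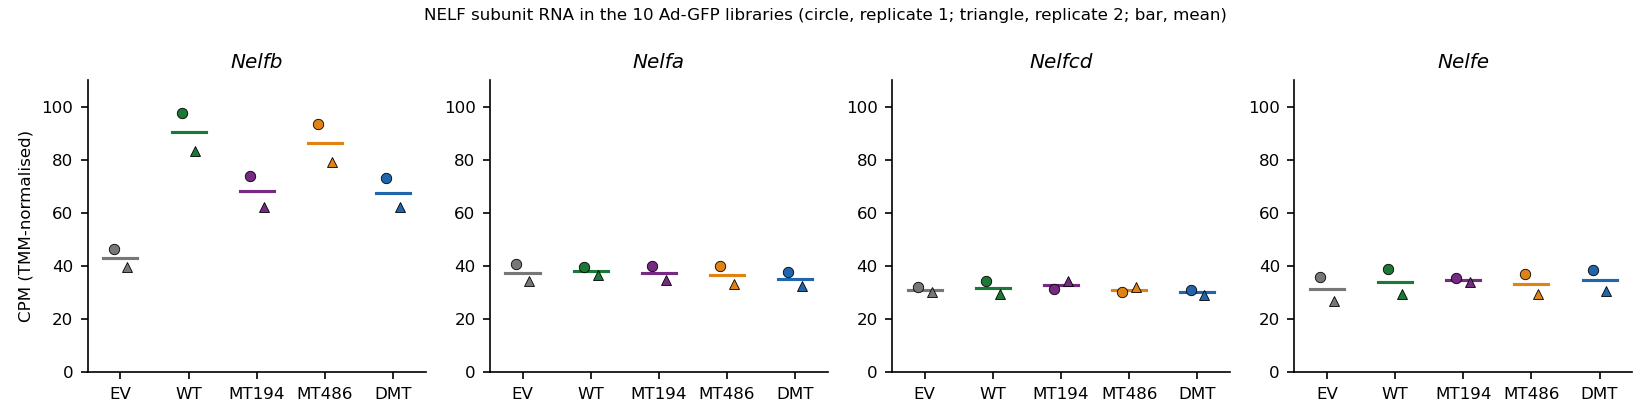
CPM of the 4 NELF subunit genes (y axis) in each Ad-GFP group (x axis); circles are replicate 1, triangles replicate 2 and bars the mean of the 2 libraries. Nelfb is at 39.8 to 46.3 CPM in EV and at 62.1 to 97.7 CPM in the construct libraries, whereas Nelfa, Nelfcd and Nelfe stay between 26.9 and 40.6 CPM.

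RNA of the other subunits was not called in any comparison. Nelfa, which encodes the subunit that contacts RNA polymerase II, ranged from 32.4 to 40.6 CPM over the 10 libraries. Nelfcd, which encodes NELFC and NELFD, ranged from 29.1 to 34.5 CPM. Nelfe, the RNA-binding subunit, ranged from 26.9 to 38.8 CPM. Their log2 fold changes, constructs averaged against EV, were -0.03 (standard error 0.06), 0.01 (0.07) and 0.12 (0.07), and their adjusted p were 0.975, 0.995 and 0.809. Of the 13 genes of DSIF, P-TEFb and its regulators no member was called in any comparison, nor was any of the 12 heat shock genes, the 24 citrate cycle genes or the 58 nuclear genes of oxidative phosphorylation. Supt5, the larger DSIF subunit, had 229 and 231 CPM in EV and 222 to 249 CPM in the constructs. At these levels of Nelfb RNA, then, no RNA of these other pausing genes was called, though differences that were not called may be present.

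How many genes moved with added NELFB whatever the construct was asked with the average of the 4 constructs against EV. Calls required an adjusted p below 0.05 together with a log2 fold change beyond 0.5 in either direction; values in parentheses after CPM are log2 fold changes of edgeR's quasi-likelihood test. Of 13343 genes tested, 17 (0.127%) were called, 3 higher (0.0225%) and 14 lower (0.105%). Nelfb itself was 1 of the 3. Without the replicate as a block no gene was called in this or any other comparison (edgeR, 67 to 478 genes at an unadjusted p under 0.05), so every call below rests on the pairing of libraries by experiment. The libraries did not overlap for 8 of the 17, whereas over all genes 0.615% lay higher and 0.622% lower in all 8 construct libraries than in both EV libraries. Since all comparisons with EV share its 2 libraries, genes in this list may mark the EV population as well as added NELFB, and in bulk RNA fewer cells with a transcript and less of it per cell cannot be told apart.

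**Figure D2:**
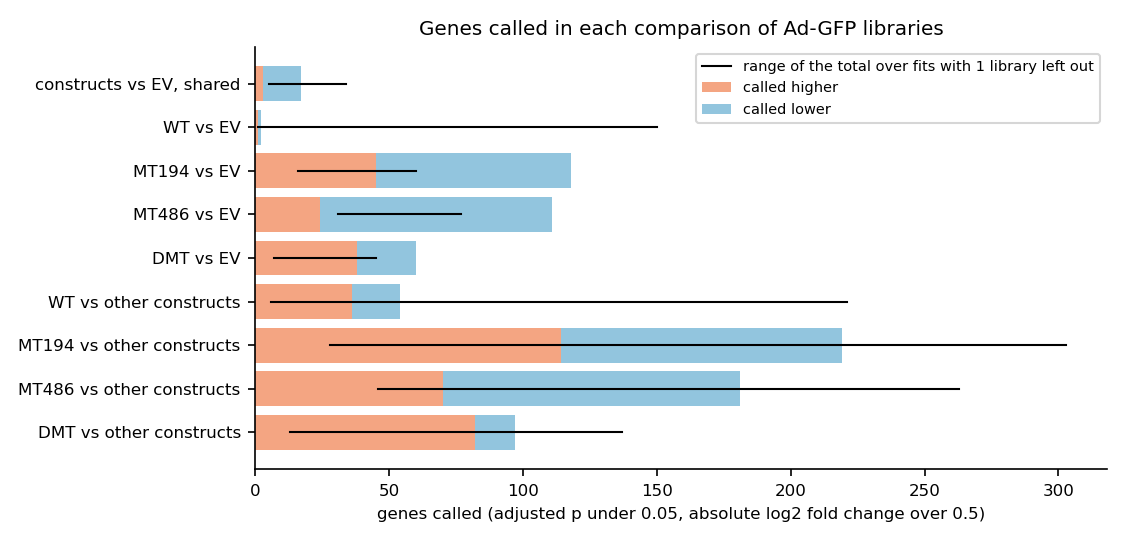
Number of genes called (x axis) in each comparison of Ad-GFP libraries (y axis), split into higher and lower; the black line spans the totals obtained when 1 library at a time is left out. Few genes were called for the shared comparison (17) and for WT vs EV (2), and most for MT194 vs other constructs (219) and MT486 vs other constructs (181).

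Of the 14 genes lower in the constructs, Arap2 is described first. Arap2, on chr5:62602445-62766159, encodes a GTPase-activating protein for Arf6. It had 12.9 and 9.73 CPM in EV, 9.60 and 7.57 in WT, 7.87 and 7.65 in DMT, 4.82 and 3.29 in MT194, and 4.18 and 2.87 in MT486. Every construct library was below both EV libraries, and the 4 libraries of MT194 and MT486 were the lowest. The fall was -1.02 as a log2 fold change, with a standard error of 0.11 and an adjusted p of 0.000113, and leaving out any 1 library kept the call. Msln, which encodes the surface protein mesothelin, had 30.7 and 39.7 CPM in EV and 13.6 to 24.9 CPM in the construct libraries (-0.83, standard error 0.13, adjusted p = 0.0268). Srgn, which encodes the proteoglycan serglycin of secretory granules, had 4.93 and 4.67 CPM in EV and 1.496 to 4.55 CPM in the constructs (-0.86, standard error 0.16, adjusted p = 0.0236). The calls of Msln and Srgn were lost in 4 and 3 of the 10 fits that left out 1 library. Ppfibp2, a liprin of cell junctions, was the other gene beside Nelfb that was called higher without overlap, with 9.27 and 9.33 CPM in EV and 11.5 to 15.2 CPM in the constructs (0.51, standard error 0.10, adjusted p = 0.0268), and its call was lost in 6 of the 10 fits.

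Igf2 and Wnt5a were the 2 called members of the 28 growth factors and receptors of fibroblasts, and both fell, beside 0.105% of all genes called lower. Igf2, which encodes the fetal insulin-like growth factor 2 and is expressed from the paternal allele, had 1270 and 1702 CPM in EV. In WT it had 938 and 1052 CPM, in MT194 865 and 1153, in DMT 1102 and 1595, and in MT486 536 and 577. MT486 held the lowest levels, whereas DMT overlapped EV. The shared value, -0.67 on the log2 scale with a standard error of 0.07 and an adjusted p of 0.000113, thus averages constructs that differed: -1.40 in MT486 (adjusted p = 2.75e-07), -0.56 in MT194 (0.00517, lost in all 4 fits that left out 1 library of the pair of groups), -0.56 in WT (0.0582) and -0.15 in DMT (0.679). Wnt5a, a ligand of noncanonical Wnt signaling, had 12.6 and 17.3 CPM in EV and 5.72 and 5.68 CPM in MT486, with the other 6 libraries between 8.05 and 16.2 CPM (-0.63, standard error 0.10, adjusted p = 0.00598), a call lost in 2 of the 10 fits that left out 1 library. Scn3a, a sodium channel gene, was the only gene besides Nelfb called in WT against EV (2 of 13343 genes, 0.015%, with 1 in each direction, 0.00749%): it had 22.1 and 43.6 CPM in EV and 15.4 and 23.5 CPM in WT (-0.73, standard error 0.11, adjusted p = 0.013). This call was absent when WT-GFP 2 or EV-GFP 2 was left out, and with WT-GFP 1 left out 150 genes were called, so the count for WT depended on which library represented it.

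With all 10 libraries, the mutant groups had more called genes against EV than the 2 of WT. This difference in counts was not itself tested, and the count for WT depended on which of its libraries was used. In MT194, 118 genes (0.884%) were called, 45 higher (0.337%) and 73 lower (0.547%). In MT486, 111 genes (0.832%) were called, 24 higher (0.18%) and 87 lower (0.652%), and in DMT 60 genes (0.45%), 38 higher (0.285%) and 22 lower (0.165%). Without DMT-GFP 2 the DMT count was 11, 2 higher and 9 lower, with 6 of the 60 among them, and without EV-GFP 1 it was 13, 5 higher and 8 lower. Leaving out 1 library of the compared groups at a time gave 16 to 60 genes for MT194, 31 to 77 for MT486 and 7 to 45 for DMT, with the fewest without MT194-GFP 2, MT486-GFP 2 and EV-GFP 2, respectively. Whether a gene was particular to 1 construct was tested without EV, as that construct against the mean of the other 3. By this test 219 genes (1.64%) were called for MT194, 114 higher (0.854%) and 105 lower (0.787%). For MT486 there were 181 (1.36%), 70 higher (0.525%) and 111 lower (0.832%). For DMT there were 97 (0.727%), 82 higher (0.615%) and 15 lower (0.112%), and for WT 54 (0.405%), 36 higher (0.27%) and 18 lower (0.135%). Leaving out 1 library at a time gave 28 to 303 genes for MT194, 46 to 263 for MT486, 13 to 137 for DMT and 6 to 221 for WT, with the fewest in each case without replicate 2 of that construct.

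Interferon-stimulated genes had up to 9 called members in a comparison. They encode antiviral proteins and are switched on by interferon-activated transcription factors, which bind the interferon-stimulated response element in their promoters. All 32 members passed the filter on low counts. Against EV, 6 were called lower in MT194 (0.547% of all genes were called lower) and 8 in MT486 (0.652%), and none in WT or DMT. The log2 fold changes were below 0 for 31 of 32 members in MT194, with a median of -0.60, and for 32 of 32 in MT486, with a median of -0.63, beside medians over all genes of 0.00 in both. In the comparisons without EV, 3 were called lower in MT194 (0.787% of all genes were called lower) and 9 in MT486 (0.832%), with medians of -0.38 and -0.47. In these comparisons 7 were called higher in WT (0.27% of all genes were called higher) and 5 in DMT (0.615%), with medians of 0.47 and 0.36.

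The 32 genes together held 1714 and 1323 CPM in EV, with Stat2 the most abundant. They held 1839 and 1331 CPM in WT, 1207 and 987 in MT194, 1246 and 912 in MT486, and 1437 and 1454 in DMT. Both libraries of MT194 and MT486 were below the EV library of the same replicate, those of WT were level with or above it, and those of DMT lay on either side. In MT194, 30 and 32 of the 32 genes were below the EV library of the same replicate, in MT486 32 and 32, in DMT 29 and 3, and in WT 9 and 14. Leaving out DMT-GFP 2 removed all 5 calls in DMT and brought its median to 0.07, so the higher level in DMT rested on that library. Without WT-GFP 2 the calls in WT went from 7 to 2 with a median of 0.59. Over the fits that left out any 1 of the 10 libraries, 0 (without EV-GFP 1) to 16 (without either DMT library) members were called lower in MT194 against EV and 2 (without MT486-GFP 2) to 18 (without either DMT library) in MT486, with medians from -0.63 to -0.49 and from -0.82 to -0.51. Against the other constructs the same counts were 0 (without MT194-GFP 1) to 12 in MT194 and 2 (without MT486-GFP 2) to 15 in MT486.

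**Figure D3:**
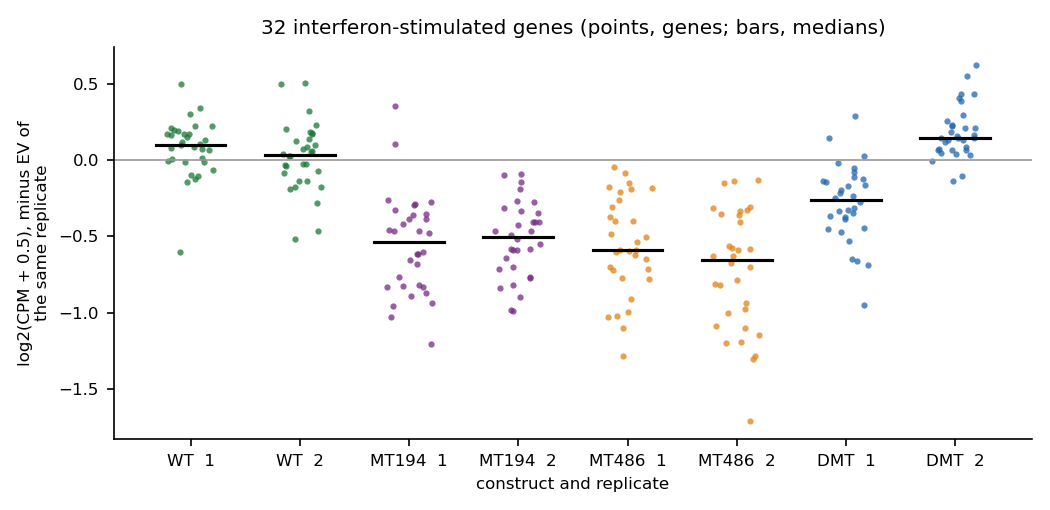
Difference of each of the 32 interferon-stimulated genes (points) from EV of the same replicate, on the log2(CPM + 0.5) scale (y axis), in each construct library (x axis); bars are medians. The medians are -0.54 and -0.50 in MT194 and -0.59 and -0.65 in MT486, against 0.10 and 0.03 in WT and -0.26 and 0.15 in DMT.

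Among its members, Ifit3, on chr19:34583531-34588731, encodes an antiviral protein of the tetratricopeptide family. It had 28.7 and 13.8 CPM in EV, 26.8 and 14.8 in WT, and 22.8 and 18.2 in DMT. In MT194 it had 16.0 and 7.83 CPM and in MT486 14.2 and 6.14 CPM. The log2 fold change against EV was -0.83 (standard error 0.17, adjusted p = 0.0259) in MT194 and -1.06 (0.17, adjusted p = 0.00849) in MT486. The call of Ifit3 in MT194 was lost without EV-GFP 1, as were those of all other members. Ifih1, which encodes the RNA sensor MDA5, went from 41.3 and 23.2 CPM in EV to 27.0 and 16.7 CPM in MT194 (-0.55, standard error 0.10, adjusted p = 0.00768), a call lost in 3 of 4 fits that left out 1 library. Rsad2, which encodes the antiviral enzyme viperin, went from 13.1 and 12.6 CPM in EV to 5.07 and 5.39 CPM in MT486 (-1.29, standard error 0.18, adjusted p = 0.0013), and the call held when each of the 4 libraries was left out. Oas1g, which encodes a 2′-5′ oligoadenylate synthetase, had 3.45 and 3.59 CPM in EV and 1.44 and 0.746 CPM in MT486 (-1.67, standard error 0.27, adjusted p = 0.00365), a call lost in 2 of 4 such fits. Cmpk2, a mitochondrial nucleotide kinase next to Rsad2, had 5.03 and 3.78 CPM in EV, 2.44 and 1.38 CPM in MT486, and 5.44 and 2.94 CPM in MT194, so that it was called in MT486 (-1.22, standard error 0.21, adjusted p = 0.00509, lost in 3 of 4 such fits) but not in MT194 (-0.09, adjusted p = 0.887). Ifit3 and Oas1g have near-identical neighbours, and reads that fit several copies were left out of the counts.

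Promoter stretches of 3 of these genes are shown because 13 of the 22 members with a promoter hold a short letter pattern; Cmpk2 was not among the 13. Capitals mark matches on either strand to GAAA, any 2 bases and GAAA again (on the other strand TTTC, any 2 bases and TTTC), the core of the interferon-stimulated response element.
Ifit3 promoter, chr19:34583345-34583444, plus strand: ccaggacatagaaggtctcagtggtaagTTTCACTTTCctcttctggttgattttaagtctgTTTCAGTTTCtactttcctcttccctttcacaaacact
Rsad2 promoter, chr12:26456518-26456617, minus strand: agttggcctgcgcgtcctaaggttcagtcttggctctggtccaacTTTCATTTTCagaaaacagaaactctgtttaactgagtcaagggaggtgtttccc
Oas1g promoter, chr5:120887574-120887673, minus strand: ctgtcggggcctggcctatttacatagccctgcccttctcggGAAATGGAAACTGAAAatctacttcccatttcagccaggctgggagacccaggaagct
Promoters came from RefSeq (GRCm38.p6), cover 300 bases around the start, and were matched by symbol for 22 of the 32 members. The pattern was present in 13 of these 22 (59.1%), and in 369 of the 10051 tested genes with a promoter (3.67%) or 1079 of all 27025 (3.99%). In Oas1g 2 matches overlap. A match is a description of letters and not a measured binding site.

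Related immune lists held calls too. Of the 10 genes of MHC class I and antigen processing, 2 were called higher in WT against the other constructs (0.27% of all genes), H2-K1, a class I heavy chain, and Psmb8, an immunoproteasome subunit, and the median was 0.32 with 10 of 10 above 0. H2-K1 had 410 and 434 CPM in WT, 376 and 416 in EV, and 238 to 366 in the other constructs (0.50, standard error 0.09, adjusted p = 0.021), and has near-identical relatives. Neither call remained without WT-GFP 2, where the median was 0.43, and H2-K1 was lost in 5 of 8 fits that left out 1 construct library. Of the 22 chemokines and cytokines, 4 were called lower in MT194 against EV: Il6, Lcn2, Cxcl10 and Saa3, beside 0.547% of all genes. With 1 of the 10 libraries left out 1 (without EV-GFP 1) to 4 were called, and Cxcl10 was lost in all 4 fits that left out a library of either group. Il6, on chr5:30013114-30019981, had 51.9 and 52.1 CPM in EV and 49.2 and 46.3 in WT. It had 28.2 and 31.9 CPM in MT194, 31.2 and 39.9 in DMT, and 58.4 and 60.5 in MT486. The libraries of MT194 and DMT were thus below all others and those of MT486 above all others. Against the other constructs, Il6 fell in MT194 (-0.64, standard error 0.08, adjusted p = 0.000128) and rose in MT486 (0.68, standard error 0.07, adjusted p = 3.30e-05), and neither call was lost when a library was left out. Lcn2, which encodes the iron-binding protein lipocalin 2, had 950 and 1232 CPM in MT194 and 1437 and 1857 CPM in EV (-0.59, standard error 0.09, adjusted p = 0.00214), a call lost in 3 of 4 fits that left out 1 library. Ccl7 and Ccl2, monocyte chemokines, were called higher in MT486 than in the other constructs, Ccl7 with 36.5 and 51.8 CPM against 21.3 to 33.2 CPM (0.66, standard error 0.08, adjusted p = 0.000169).

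Several imprinted growth genes fell in MT486. Of 16 tested, 5 were called lower in MT486 against EV, beside 0.652% of all genes: Igf2, Ndn, Peg3, Dlk1 and H19. The median log2 fold change was -0.22 with 3 of 16 above 0, and 4 to 6 members were called when 1 library was left out. H19, a noncoding RNA expressed from the maternal allele at chr7:142575529-142578143, lies near Igf2 at chr7:142650766-142666816. Ndn, on chr7:62346569-62350262, encodes the growth suppressor necdin. Ndn had 31.0 and 28.3 CPM in EV, 23.6 and 25.2 in WT, 30.4 and 31.7 in MT194, and 34.5 and 38.2 in DMT. In MT486 it had 12.6 and 12.7 CPM, below every other library. Its log2 fold change in MT486 was -1.23 against EV (standard error 0.10, adjusted p = 1.10e-06) and -1.25 against the other constructs (0.09, adjusted p = 3.49e-07). H19 had 36.2 and 21.4 CPM in EV, 22.8 and 9.70 in MT486, and 60.3 and 33.5 in MT194. Within each replicate MT486 was the lowest and MT194 the highest, although the groups overlap across replicates. H19 was called lower in MT486 (-1.18, standard error 0.12, adjusted p = 6.83e-05) and higher in MT194 (0.87, standard error 0.10, adjusted p = 0.000173) than in the other constructs. Peg3, a paternally expressed zinc finger gene, had 325 and 321 CPM in EV, 193.9 and 170 in MT486, and 235 and 184 in DMT, and was called lower in MT486 (-0.83, standard error 0.08, adjusted p = 1.64e-05) and in DMT (-0.64, standard error 0.08, adjusted p = 0.00152, lost in 2 of 4 fits that left out 1 library).

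**Figure D4:**
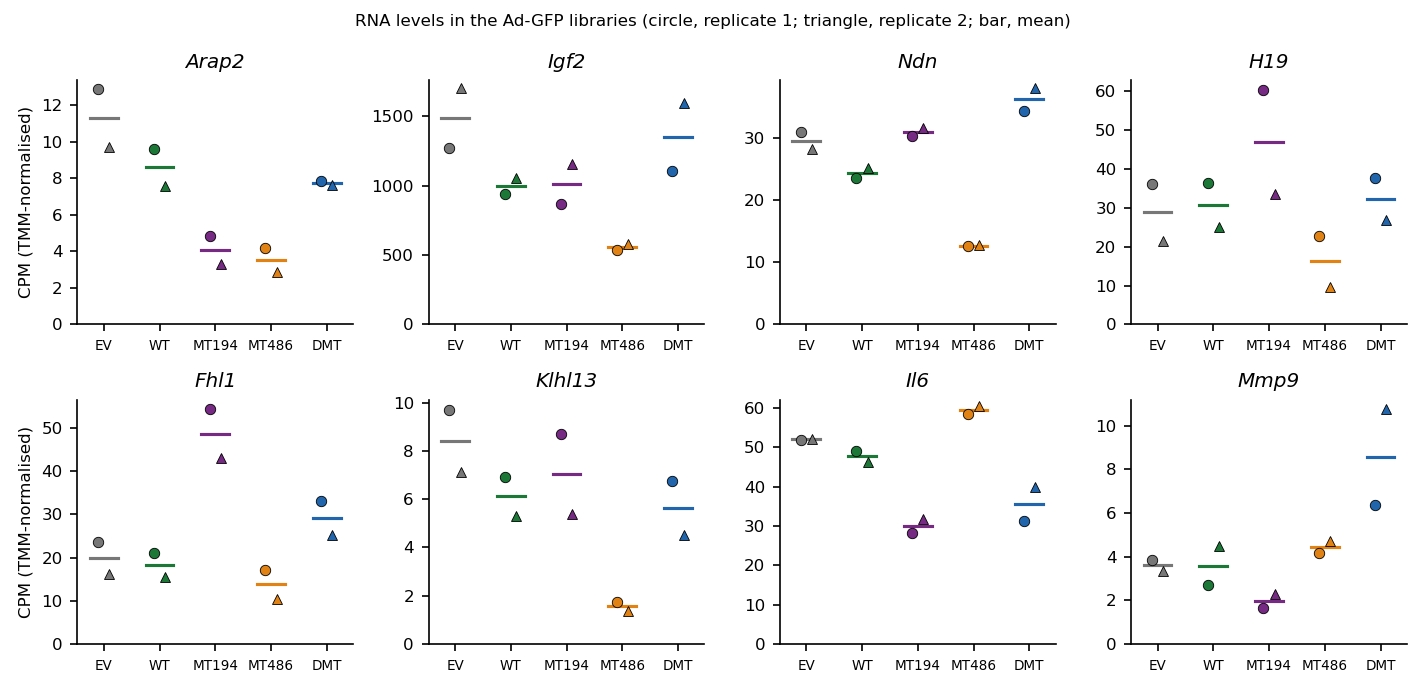
CPM (y axes, each from 0) of 8 genes in the 5 Ad-GFP groups (x axes); circles are replicate 1, triangles replicate 2, bars means. Ndn and Klhl13 are lowest in MT486, Fhl1 is highest in MT194, Mmp9 is highest in DMT, and Il6 is lower in MT194 and DMT than in EV, WT and MT486.

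Beyond these lists, Klhl13 and the collagen IV genes were low in MT486. Klhl13, on chrX:23219271-23365082, encodes an adaptor of a CUL3 ubiquitin ligase that acts in mitosis. It had 9.72 and 7.12 CPM in EV, 4.50 to 8.69 CPM in WT, MT194 and DMT, and 1.74 and 1.38 CPM in MT486. It fell in MT486 against the other constructs (-2.00, standard error 0.17, adjusted p = 2.67e-06), a call kept in all 8 fits that left out 1 construct library. Col4a1 and Col4a2, the paired genes of the main collagen IV chains, were the called members of a list of 19 collagens against EV, beside 0.652% of all genes called lower. Col4a1 went from 131 and 170 CPM in EV to 80.3 and 103 CPM in MT486 (-0.71, standard error 0.07, adjusted p = 1.55e-05), and Col4a2 from 104.7 and 142 to 67.9 and 82.2 CPM (-0.71, standard error 0.08, adjusted p = 5.34e-05). Col4a1 overlapped WT, with 99.5 and 128 CPM, and its call against the other constructs (-0.51, adjusted p = 9.23e-05) was lost in 3 of 8 fits. Col18a1, another basement membrane collagen, was higher in MT486 than in the other constructs (0.67, adjusted p = 8.92e-05). No collagen of the list was called higher in MT486 against EV. Col18a1 was called lower in MT194, both against the other constructs (-0.74) and against EV (-0.58, or -0.69 to -0.45 with 1 library left out). Sfrp1, a secreted Wnt antagonist, had 83.3 and 117 CPM in EV and 52.7 and 70.9 in MT486 (-0.70, standard error 0.09, adjusted p = 0.000186). Col2a1, a cartilage collagen outside the 19, rose, from 3.01 and 7.86 CPM in EV to 12.9 and 33.2 CPM (2.07, standard error 0.15, adjusted p = 4.59e-07), and also in MT194, to 8.60 and 21.1 CPM (1.45, standard error 0.16, adjusted p = 8.74e-05). Rbm20, a splicing factor of muscle genes, had 11.5 and 15.3 CPM in MT486 and 4.20 to 8.93 CPM in the other constructs (1.21, standard error 0.12, adjusted p = 1.16e-05). Of 8 EGF-family ligands and receptors, Ereg and Tgfa, both EGF receptor ligands, were called higher than in the other constructs (0.525% of all genes), Ereg with 32.4 and 44.8 CPM against 14.7 to 29.9 CPM (0.76, standard error 0.11, adjusted p = 0.00143). Tgfa was lost in 6 of 8 fits that left out 1 construct library, and 0 (without MT486-GFP 2) to 4 members of the list were called with 1 library left out. Of 23 immediate early genes with a median of 0.24, Egr3 and Cyr61 were called higher too (0.525% of all genes). Egr3 had 5.37 and 4.65 CPM against 1.81 to 3.06 CPM (1.12, standard error 0.18, adjusted p = 0.00188). No member of the immediate early or EGF-family lists was called in MT486 against EV, whereas Rbm20 was (1.05). Against the other constructs, Egr3 (-0.76) and Rbm20 (-0.98) were called lower in MT194 and Ereg (-0.55) in DMT. Cyr61 was called lower than in EV in MT194 (-0.62) and DMT (-0.74).

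MT194 was set apart by Fhl1 and a few cytoskeletal genes. Fhl1, on chrX:56731787-56793346, encodes a LIM domain protein of muscle. It had 23.6 and 16.2 CPM in EV, 21.1 and 15.4 in WT, 17.1 and 10.5 in MT486, and 33.2 and 25.2 in DMT. In MT194 it had 54.4 and 43.0 CPM, above every other library, and its log2 fold change against the other constructs was 1.33 (standard error 0.07, adjusted p = 7.36e-09), a call kept in all 8 fits that left out 1 construct library. Of the 12 smooth-muscle contractile genes, Acta2, Cnn1 and Tagln were called higher (0.854% of all genes) and Mylk lower (0.787%), with a list median of 0.10 and 0 to 4 called higher when 1 library was left out. Acta2, smooth-muscle actin, had 24.9 and 29.7 CPM in MT194 and 14.0 to 19.9 CPM in all other libraries (0.69, standard error 0.09, adjusted p = 0.000342). Mylk, the myosin light chain kinase, had 69.6 and 80.7 CPM in MT194 and 90.3 to 142 CPM in the other constructs (-0.66, standard error 0.09, adjusted p = 0.0014). Against EV, Acta2 was the only member of this list called in MT194 (0.69, or 0.49 to 0.87 with 1 library left out). The muscle markers Myod1 and Myog stayed at 0. Tubb3, a tubulin known from neurons, had 7.74 and 8.28 CPM in MT194 and 2.78 to 4.46 CPM in the other constructs (1.21, standard error 0.14, adjusted p = 5.47e-05). The 4 neural markers summed to 71.3 and 101 CPM in MT194, 56.3 and 84.7 in EV, 51.7 and 58.4 in WT, 59.5 and 93.9 in MT486, and 53.9 and 63.5 in DMT, and their part in the MT194 differences was not tested. Sprr1a and Sprr2b, small proline-rich proteins known from keratinocytes, were called higher too, 2 of 3 tested members of a list of 14 (0.854% of all genes) and 0 without MT194-GFP 2, Sprr1a with 29.4 and 37.0 CPM against 15.4 to 29.9 CPM in the other constructs (0.75, standard error 0.10, adjusted p = 0.000557), beside epithelial markers at most at 1.23 CPM in sum. Hspb8, a small heat shock protein outside the heat shock list, fell to 1.91 and 0.997 CPM against 2.795 to 7.55 CPM (-1.75, standard error 0.19, adjusted p = 4.04e-05), and Sult1c2, a sulfotransferase, to 10.5 and 5.73 CPM against 13.3 to 38.6 CPM (-1.55, standard error 0.12, adjusted p = 1.86e-06).

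Cell cycle genes differed by small amounts in MT194 against the other constructs. All 27 genes of the G2/M and mitosis list were above 0, with a median of 0.30, and 12 had an adjusted p under 0.05, beside 931 of all 13343 genes, but Prc1, a mitotic spindle protein, was the only called member, with 94.4 and 103 CPM against 59.99 to 81.4 CPM (0.51, standard error 0.09, adjusted p = 0.00624). This comparison included WT-GFP 2 and DMT-GFP 2, in which the list was low, and without either of them no member was called, with medians of 0.29 and 0.26. Of 25 Trp53 targets, Cdkn1a, Perp and Eda2r were called higher, beside 0.854% of all genes, with a list median of 0.18 and 0 to 3 called when 1 library was left out. Cdkn1a, the cyclin-dependent kinase inhibitor p21, had 21.5 and 17.0 CPM in MT194 and 12.0 to 14.1 CPM in the other constructs (0.54, standard error 0.10, adjusted p = 0.00335). No Trp53 target was called in MT194 against EV. With Ad-Cre, Cdkn1a was at -0.25, Perp at -0.58 and Eda2r at 0.03 against the other constructs, and no member of the list was called. Igfbp2, an IGF-binding protein, had 70.0 and 100 CPM in MT194, 87.5 and 135 in DMT, and 142 to 191 in EV, WT and MT486, and was called lower in MT194 against EV (-0.95, standard error 0.11, adjusted p = 0.0011) and in DMT (-0.56, standard error 0.11, adjusted p = 0.0349, lost in 3 of 4 fits that left out 1 library).

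DMT, whose label names both mutations, differed from the mean of the other constructs in Mmp9, Postn and a few further genes. Of 30 matrix proteins and their proteases, Mmp9 and Postn were called higher than in the other constructs, beside 0.615% of all genes, and without DMT-GFP 2 Postn kept its call and Mmp9 did not (1.16, adjusted p = 0.0662). Mmp9, which encodes gelatinase B at chr2:164940780-164955850, had 6.37 and 10.7 CPM in DMT, 3.85 and 3.34 in EV, 2.70 and 4.46 in WT, 4.18 and 4.70 in MT486, and 1.62 and 2.29 in MT194. DMT lay above and MT194 below every other library (DMT 1.44, standard error 0.15, adjusted p = 4.95e-05; MT194 -1.40, standard error 0.20, adjusted p = 0.000595). Postn, the matrix protein periostin, had 14.4 and 23.4 CPM in DMT and 5.12 to 17.6 CPM in the other constructs (0.93, standard error 0.10, adjusted p = 4.95e-05), so its libraries overlapped. It was also called higher in DMT than in EV (0.85), and lower in WT (-0.59) and MT486 (-0.81) than in the other constructs. Thsd4, a fibrillin-binding matrix protein, had 7.04 and 9.502 CPM in DMT and 2.44 to 5.14 CPM in the other constructs (1.27, standard error 0.12, adjusted p = 2.99e-05), and Tbx2, a T-box repressor, 5.49 and 7.11 CPM against 2.20 to 4.08 CPM (1.10, standard error 0.13, adjusted p = 0.000165). Among 14 YAP and TEAD targets, Ankrd1 and Cyr61 were called lower than in EV (0.165% of all genes), Cyr61 with 138 and 199 CPM against 239 and 319 CPM (-0.74, standard error 0.11, adjusted p = 0.00859), and both calls were lost without DMT-GFP 2, Cyr61 in 2 and Ankrd1 in 4 of the 4 fits that left out 1 library. Without DMT-GFP 2, 13 genes were called for DMT against the other constructs, 11 of them among the 97.

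In WT, 54 genes were called against the other constructs, a count of 6 without WT-GFP 2 and 221 without WT-GFP 1. Batf, an AP-1 family factor of immune cells at chr12:85686669-85709087, had 10.4 and 8.79 CPM in WT, 8.19 and 5.01 in EV, and 4.03 to 7.12 in the other constructs (0.85, standard error 0.12, adjusted p = 0.00363). Saa3, an acute-phase protein, had 5719 and 6424 CPM in WT, 5502 and 5682 in EV, and 3333 to 5083 in the other constructs (0.59, standard error 0.10, adjusted p = 0.0149). Nid2, the basement membrane protein nidogen 2, had 414 and 465 CPM in WT and 245 to 405 CPM in the other constructs (0.54, standard error 0.08, adjusted p = 0.00822). Saa3 and Nid2 were each lost in 3 of the 8 fits that left out 1 construct library, and Batf in 1.

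Of 23 immediate early genes, Cyr61 was called lower in MT194 (0.547% of all genes) and DMT (0.165%) against EV and none in WT or MT486, and each call was lost in 2 of 4 fits that left out 1 library. The list medians were -0.19 in MT194 and -0.28 in DMT, with ranges of -0.39 to -0.02 and of -0.48 (without DMT-GFP 2) to -0.14 when 1 library was left out. Against EV of the same replicate they were -0.34 and -0.02 in the MT194 libraries and -0.45 and -0.09 in those of DMT. None of the 12 ERK feedback genes, the 21 genes listed here as signaling kinases or the 32 DNA replication genes was called in any comparison. In MT194 against the other constructs, calls outside the lists above included Inhba of 21 TGF-beta response genes and Slc7a5 of 19 ATF4 targets. Ccne2, of 16 G1 cyclins, kinases and inhibitors, was called as well. All were higher, beside 0.854% of all genes called higher. With 1 construct library left out, Inhba was lost in 3 of 8 fits, Slc7a5 in 2 and Ccne2 in 1. Egln3, of 24 hypoxia and glycolysis genes, was called lower in MT486 against the other constructs (0.832% of all genes). Its adjusted p was 0.0488, and the call was lost in 7 of 8 fits that left out 1 construct library. The 18 NRF2 targets and 14 fatty acid synthesis genes held no call in any comparison. Of 14 Hox genes, Hoxb6 and Hoxb8 were called lower in MT486 against EV (0.652% of all genes) at levels of at most 2.899 CPM, calls that were lost in all 4 fits that left out 1 library. Against the other constructs Hoxb9 was called higher in WT, beside 0.27% of all genes (1.59, adjusted p = 0.0468, lost in 6 of 8 fits). Hoxb6 was called higher in MT194, beside 0.854% of all genes (0.76, adjusted p = 0.0414, lost in 5 of 8 fits).

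The Ad-Cre libraries of the same populations, which did not enter these calls, showed which differences between constructs were present again 7 days after targeting of the floxed allele. They are separate libraries but of the same populations, so a trait of a population would return in them. Leaving Nelfb aside, 174 of the 181 MT486 genes (96.1%) had the same direction with Ad-Cre, beside 68.6% of all genes. For MT194 it was 169 of 218 tested (77.5%, beside 60.05%), for WT 40 of 54 (74.1%, beside 63.2%), and for DMT 66 of 97 (68.0%, beside 54.6%). With Ad-Cre, 36 of the MT486 genes were called again in the same direction (0.527% of all genes were called), 57 of the MT194 genes (1.88%), 19 of the WT genes (10.1%) and 28 of the DMT genes (4.21%). A further 4 DMT genes, and none of the other constructs, were called in the opposite direction.

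**Figure D5:**
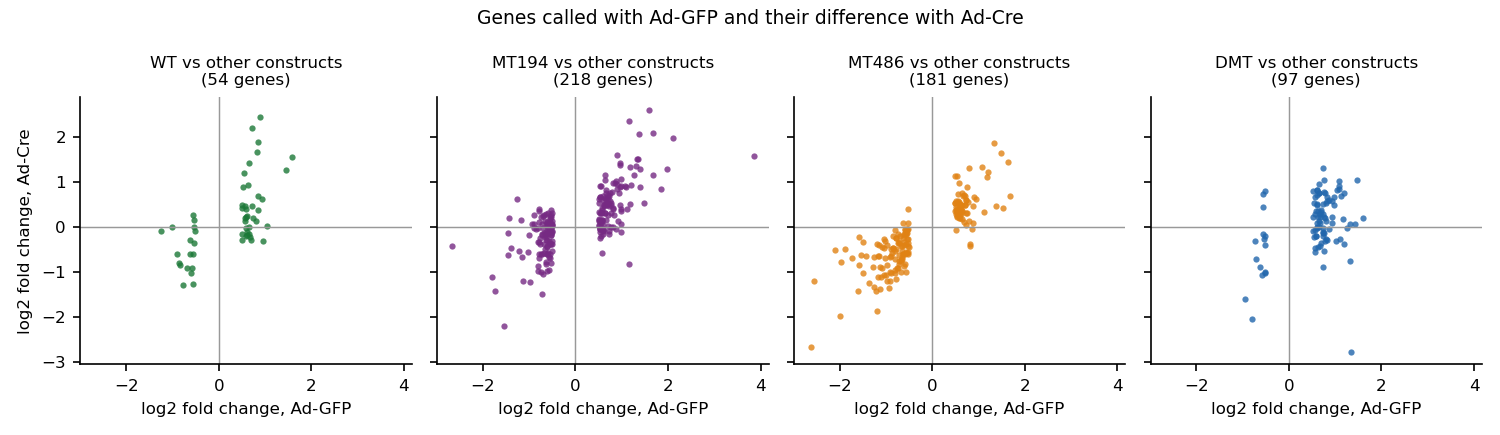
log2 fold change against the other constructs with Ad-GFP (x axis) and with Ad-Cre (y axis) of the genes called with Ad-GFP, 1 panel per construct, each point a gene. Of the MT486 genes 174 of 181 fall in the quadrants of equal sign, of the DMT genes 66 of 97.

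Some of the genes named above were called again. Fhl1 was again higher in MT194 (1.52, adjusted p = 2.05e-07), as was Tubb3 (0.93, adjusted p = 0.0077), and Sult1c2 was lower (-2.19, adjusted p = 0.000304). In MT486 Klhl13 (-1.98, adjusted p = 0.00365), Ndn (-1.32, adjusted p = 4.89e-05) and H19 (-1.86, adjusted p = 0.0257) were again lower, and Rbm20 (1.23, adjusted p = 0.00505), Ccl7 (0.75, adjusted p = 0.00299) and Ereg (0.89, adjusted p = 0.000584) higher. Of the 16 imprinted growth genes, 5 were called lower in MT486 with Ad-Cre, with a median of -0.47. Of the 32 interferon-stimulated genes, 0 were called with Ad-Cre in any of the 4 comparisons, and the medians were -0.01 in WT, 0.02 in MT194, -0.07 in MT486 and 0.04 in DMT. In MT486 Cmpk2 was at -0.66 (adjusted p = 0.0661), Rsad2 at -0.40 (adjusted p = 0.408) and Oas1g at -0.22 (adjusted p = 0.477) with Ad-Cre. The test of the difference between the viruses called 0 of 13805 genes in MT486, with 641 at an unadjusted p under 0.05. Among genes named above that were not called with Ad-Cre, in DMT Mmp9 was at 0.06 (adjusted p = 0.917), Thsd4 at -0.02 (adjusted p = 0.977) and Tbx2 at -0.27 (adjusted p = 0.619), and in MT194 Il6 was at 0.30 (adjusted p = 0.293). Postn in DMT was at 0.58 with Ad-Cre. For WT, Batf was at 1.895, Nid2 at 1.20, Saa3 at 0.22 and H2-K1 at -0.29 with Ad-Cre.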

How the data were processed

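Poly(A) RNA was sequenced as 50 bp single reads. Per the study's methods and the labels, the authors aligned reads to mm10 with Bowtie2, kept those with a mapping quality of at least 30 using SAMtools, and deposited raw counts per gene from HTSeq; versions and the strand setting of the counting are not given in the sources used here, so overlapping and antisense genes are uncertain. Of 24421 genes, 13343 passed filterByExpr. Deposited counts of the 10 Ad-GFP libraries were fitted with edgeR 4.0.16 in R 4.3.3 (TMM, robust quasi-likelihood F-test, group plus replicate as block, 4 residual degrees of freedom) with Benjamini-Hochberg adjustment over all genes tested, and steps were tested on simulated data. The replicates are 2 independent experiments of the same populations, so p-values measure only the spread between these. The block rests on same-numbered libraries deviating together: all 10 pairs of groups had r over 0.1, from 0.629 to 0.770. Rows naming no gene (12.9% to 21.3% of reads without a feature and 0.911% to 0.996% ambiguous) were left out. No 2 libraries held identical values (0 pairs). Ad-Cre libraries were fitted alone (13673 genes), and differences between viruses came from a fit of all 20 populations.

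Genes were named by rank of fold change among called genes without overlap (mean count 50 or more), and by list (up to 4 called members by p in the shared comparison and 3 in the others; other called members are named without rank, having been seen first). The comparisons, 36 gene lists and members were chosen with earlier results of these data known. CPM are after TMM scaling except in sums of marker genes, and gene positions are from GENCODE on GRCm38. Alternatives were other normalization, DESeq2 1.42.0, no filter, a log2 fold change over 1, no block, all 20 populations, and leaving out each library or construct. Results for items withheld from the text are not reported here.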

Additional observations from a re-analysis of the deposited data

Results flagged for a closer look

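For 14 of the differences between a construct and the other constructs, the difference itself differed between Ad-Cre and Ad-GFP libraries, tested as an interaction over all 20 populations with a replicate block for each virus (edgeR's quasi-likelihood test, adjusted p under 0.05). Values are the log2 fold change with Ad-Cre minus that with Ad-GFP. In WT it was 1.03 for Batf, 1.15 for Ugt2b34, -0.43 for Ifih1, -1.03 for Oas1g, -0.996 for Rtp4 and -1.3 for Nelfb. In DMT it was 1.31 for Cyr61, 0.991 for Ereg, 1.21 for Nelfb, -2.07 for Gprc5c, -1.62 for Igf1, -1.38 for Mmp9, -1.37 for Tbx2 and -1.28 for Thsd4. Over 13805 genes, 1063 had such an interaction at an adjusted p under 0.05 in WT, 598 in DMT, 27 in MT194 and 0 in MT486, where 641 genes had an unadjusted p under 0.05; DESeq2 was not run for this test.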

How the results depend on the processing

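Counts of called genes are given in the order shared, then WT, MT194, MT486 and DMT against EV, then WT, MT194, MT486 and DMT against the other constructs, for which the values above were 17, 2, 118, 111, 60, 54, 219, 181 and 97. Without the replicate block the counts were 0 in all 9 comparisons. With all 20 populations and a replicate block they were 5, 0, 16, 22, 8, 0, 63, 53 and 27, and with a replicate block for each virus, chosen after seeing the data, 9, 1, 52, 53, 25, 30, 124, 101 and 47. With a log2 fold change over 1 they were 7, 1, 27, 48, 16, 5, 39, 46 and 17. Without the filter on low counts they were 38, 19, 173, 160, 96, 105, 263, 218 and 135, and with DESeq2 13, 4, 100, 79, 44, 48, 140, 123 and 71. Size factors of DESeq2 in edgeR moved no count by over 1.5 times. Leaving Nelfb out of the count, also chosen after seeing the data, left 1 gene in WT against EV. The shared count was 43 without WT, 38 without DMT, 19 without MT194 and 14 without MT486. With 1 library left out, where the lone library of a group is assumed to vary like the others, the ranges were 5 to 34, 1 to 150, 16 to 60, 31 to 77, 7 to 45, 6 to 221, 28 to 303, 46 to 263 and 13 to 137. No called named gene reversed its direction under any alternative run; of the 179 called named results, all 179 lost the call without the block, 119 lost it in at least 1 fit with a library left out, and 328 of 1182 such fits lost it. Counts of list members with libraries left out were chosen after seeing the data. The cause of these changes was not tested. With 2 libraries a group, a difference that was not called may be present.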
